A study of Solanum tuberosum with 8 samples.

Results

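Tubers of D6, a potato cultivar, were compared at 24 h and at 12 h after cutting for the level of each gene's RNA. The comparison took 3 libraries from each hour, and its members were the 19819 genes, of 42667 in the deposited table, with a mean of at least 0.5 FPKM (fragments scaled to gene length and to the reads of the library) over these 6 libraries. Of the table's genes, 39021 carry identifiers of the reference annotation, 3646 were predicted by the authors, and 13481 were listed at 0 in all 6 libraries. The gene just inside the FPKM limit was Novel01162, at 0.5001, and the gene just outside it was PGSC0003DMG400027760, at 0.4997.

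RNA was sequenced from cut tubers of the cultivars X2 and D6 at 0, 4, 12 and 24 h, to follow the response of fresh-cut potato to wounding. All D6 groups used here were tubers of this cultivar with a cut wound, 3 libraries each at 4, 12 and 24 h and 1 at 0 h, and no other treatment was given in the labels. X2 tubers with the same wound served as the other cultivar, with 3 libraries at 12 h and 2 at 24 h. For X2 the methods state that tissue blocks ran from the skin to the pith and that a replicate mixed 3 tubers, but the handling of D6 is not given in the sources used here. The p-values below therefore measure the spread between these libraries, which may be technical in part. Blocks of this kind hold skin, storage and vascular tissue together, so a change in the number of cells of one type and a change of RNA per cell cannot be told apart.

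Reads on genes numbered 31111209 to 34544470 per D6 library at 12 h and 30064846 to 35649617 at 24 h. At this depth no library stood apart in its total. Fixed marker lists were checked against the labelled tissue. They were matched to gene descriptions, which were at hand for 453 of the 19819 tested genes. Marker genes without a description are missing from the sums, so these do not give the level of a whole marker class. The 3 storage parenchyma genes, a patatin and 2 proteinase inhibitors, summed to 6.24 to 29.6 FPKM at 12 h and 4.64 to 14.6 at 24 h. The 3 periderm and wound suberin genes summed to 57.5 to 69.4 FPKM at 12 h and 63.3 to 94.7 at 24 h. The 3 green tissue genes summed to 9.23 to 20.5 FPKM at 12 h and 38.5 to 90.4 at 24 h, so these ranges did not overlap. The 27 genes of dividing cells summed to 418 to 593 FPKM at 12 h and 434 to 542 at 24 h, and no marker gene was at 0 in all 6 libraries. By the limits given below, 10 of these 27 were called higher and 2 lower at 24 h, so their sum hides changes. Of the 3 periderm genes 1 was called higher and 1 lower, and of the green tissue genes 1 was called higher. The part of these marker levels in the results below was not tested.

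A cut tuber seals its surface in stages. Cells next to the wound deposit phenolic and lipid polymers, which peroxidases help to cross-link, and a wound periderm then forms from cells that re-enter the cell cycle. In that cycle DNA and histones are made in S phase, B-type cyclins and kinesins act in mitosis, and the anaphase-promoting complex ends mitosis by marking proteins for degradation. Browning of the cut surface comes from phenolics, made from phenylalanine, that polyphenol oxidases turn into quinones.

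Between 12 and 24 h, 2095 genes (10.6%) were called, with a |log2FC| of at least 1 and a p of at most 0.01, where log2FC is the difference of the mean log2(FPKM + 0.1). Of these 1294 (6.53%) were higher at 24 h and 801 (4.04%) were lower. The largest Benjamini-Hochberg adjusted p among them was 0.0327 by limma. Over all tested genes the log2FC had a median of -0.02 and quartiles of -0.36 and 0.37. All 2095 had libraries of the 2 hours that did not overlap, against 24.6% of all tested genes with 24 h above 12 h and 27.2% with 24 h below. Large changes were mostly increases: 437 called genes rose and 46 fell by a |log2FC| of at least 2, and 86 rose and 1 fell by at least 4. In 54 genes the mean was under 0.5 FPKM at 12 h and at least 5 at 24 h, while 1 gene, a cationic peroxidase, went the other way.

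Functional descriptions were at hand for 453 of the tested genes, of which 189 (41.7%) were called. Most of these descriptions come from genes that the study had picked for strong change or by family in X2 libraries. A list drawn from them is no unbiased sample of the genome, and its count of calls is a description beside the 10.6% over all genes.

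Most described genes of mitosis and cell division rose, many from a low level. Of 26 genes described as cyclins, kinesins, tubulins or cell division proteins, 25 were tested. Of these 20 rose, none fell and 5 were not called, at a median log2FC of 4.17 against -0.02 over all genes. This is 80% called, against 41.7% of all tested genes with a description. Cell division control 20 activates the anaphase-promoting complex in mitosis. Its gene PGSC0003DMG400000540 stood at 0.248, 0.00951 and 0.103 FPKM at 12 h and at 14.6, 12.7 and 13.0 FPKM at 24 h. All 3 later libraries lay far above the earlier ones, and the gene rose by a log2FC of 6.09 ± 0.39 (SE, n = 3 per hour, adjusted p = 9.24e-05). The related PGSC0003DMG401027032 went from 0.139 ± 0.119 to 13.9 ± 1.90 FPKM (SD, n = 3), a log2FC of 5.97 (adjusted p = 5.04e-05).

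B-type cyclins bind the kinases that start mitosis. The B-type cyclin PGSC0003DMG400007172 was at 0.391, 0.170 and 0 FPKM at 12 h and at 18.1, 14.0 and 13.2 FPKM at 24 h. It had 23, 9 and 0 reads in the earlier libraries and rose by a log2FC of 5.99 ± 0.52 (adjusted p = 0.00039). Cyclin B PGSC0003DMG400009983 was between 0.0767 and 0.130 FPKM at 12 h and between 9.18 and 12.7 FPKM at 24 h, a log2FC of 5.70 (adjusted p = 2.9e-05).

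Knolle is a membrane-fusion protein of the cell plate, as known from Arabidopsis. Its gene PGSC0003DMG400016283 was at 0.159, 0 and 0.0872 FPKM at 12 h and at 18.9, 14.6 and 14.1 FPKM at 24 h. The groups were far apart, and the log2FC was 6.55 ± 0.35 (adjusted p = 4.09e-05). Clasp, a protein that binds microtubules, rose by a log2FC of 6.57 (PGSC0003DMG400006294, 0.0419 ± 0.0386 to 13.1 ± 1.90 FPKM, adjusted p = 2.9e-05). The genes named in the next sentence were chosen after their values were seen. A spindle assembly checkpoint protein (PGSC0003DMG400017457) rose by 5.70, a chromosome-associated kinesin KIF4A (PGSC0003DMG400022190) by 5.66 and a B2-type cyclin dependent kinase (PGSC0003DMG400010003) by 4.45, all as log2FC.

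The 5 cell cycle genes that were not called, named after their values were seen, all had negative values. They were a D-type cyclin of subgroup 3 (PGSC0003DMG400008001, log2FC -0.66), Cyclin A (PGSC0003DMG400021519, -0.46), a predicted cyclin-A3-1 (Novel01245, -0.43), a gene described as cdt2 (PGSC0003DMG400012630, -0.54) and CDC45, a replication helicase component (PGSC0003DMG400027946, -0.83). Of these, D-type cyclins are known for the entry into S phase, and CDC45 for replication itself. The plot of cell division genes by hour shows the called genes at means of no more than 1.49 FPKM at 12 h, while these 5 and the replication genes were higher at 12 h than at 0 h. D6 has 1 library at 0 h, so that part is a description.

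**Figure D1:**
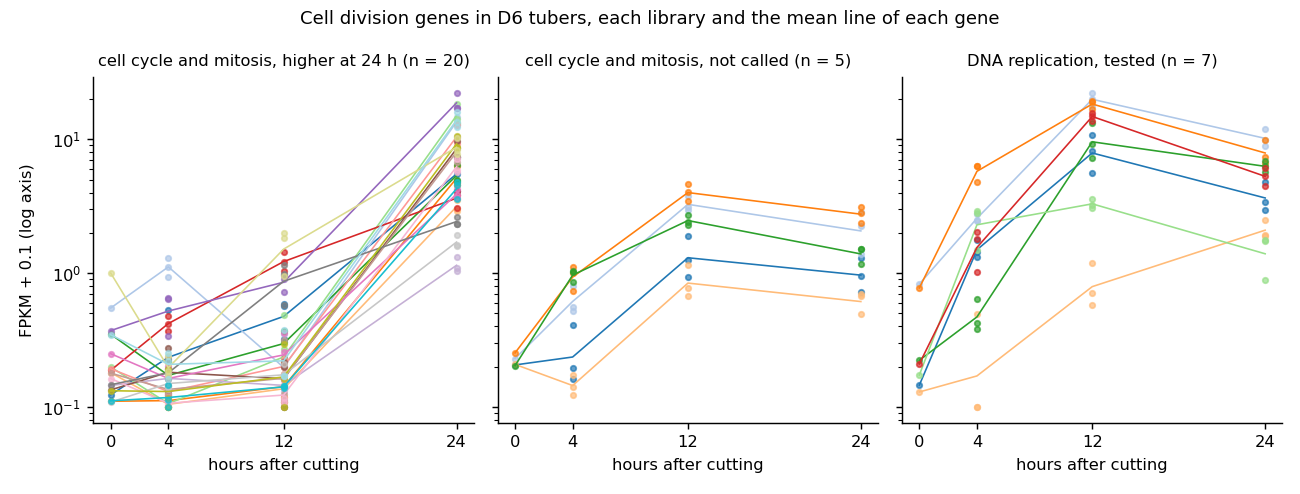
FPKM + 0.1 (log axis) against hours after cutting for cell cycle and mitosis genes that rose from 12 to 24 h (n = 20), for those that were not called (n = 5) and for DNA replication genes (n = 7). Each point is 1 D6 library and each line joins a gene's means of log values. The means in the left panel are at most 1.49 FPKM at 12 h and higher at 24 h, and 6 of the 7 replication genes run downward from 12 to 24 h.

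The pathway lists hold only genes that the study picked for a |log2FC| of at least 6 in X2. They are therefore not whole pathways. The list of ubiquitin-mediated proteolysis held 5 tested genes, and all 5 rose, at a median log2FC of 5.32. Their median between these hours in X2 was 6.11, so the count is a description only. This list shares both cell division control 20 genes with the list above. Cell cycle switch 52B, another activator of the anaphase-promoting complex, was at 0.0791, 0.0559 and 0 FPKM at 12 h and at 7.21, 4.99 and 4.67 FPKM at 24 h (PGSC0003DMG400029675, log2FC 5.32 ± 0.31, adjusted p = 6.84e-05). None of its libraries of the 2 hours overlapped.

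More DNA replication genes fell than rose over the same hours. Of 7 tested, 4 fell, 1 rose and 2 were not called, at a median log2FC of -1.12. This is 71.4% called, against 41.7% of all tested genes with a description. Replication factor A, which coats single-stranded DNA, was at 15.7, 14.8 and 13.6 FPKM at 12 h and at 5.26, 4.38 and 6.04 FPKM at 24 h. Every later library lay below every earlier one, and the gene fell by 1.48 on the log2 scale (PGSC0003DMG403013782, SE 0.14, adjusted p = 0.000498). Minichromosome maintenance protein 5, a subunit of the replicative helicase, went from 18.3 ± 1.28 to 7.91 ± 1.71 FPKM (PGSC0003DMG400011837, SD, n = 3, log2FC -1.21, adjusted p = 0.00138). Subunit 4 of the origin recognition complex, which marks replication starts, went from 3.20 ± 0.258 to 1.36 ± 0.502 FPKM (PGSC0003DMG401030517, log2FC -1.24, adjusted p = 0.0122), a call lost without D6 24 h replicate 2. The fourth was minichromosome maintenance protein 10 (PGSC0003DMG400006190, -1.12), named after its value was seen. The 1 that rose was a delta DNA polymerase, from 0.732 ± 0.326 to 2.01 ± 0.328 FPKM (PGSC0003DMG400019109, log2FC 1.40, adjusted p = 0.00975), a call lost at a pseudocount of 1 and in the fit of all D6 libraries. The number that fell was 2 without D6 24 h replicate 2 and at a pseudocount of 1. At a |log2FC| of at least 1.5 none of the 7 fell or rose. DNA-binding protein MNB1B, a chromatin protein of the HMG type, also fell (PGSC0003DMG400025304, 20.2 ± 8.03 to 7.5 ± 0.23 FPKM, log2FC -1.35, adjusted p = 0.00431).

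Histones package new DNA. None of the 12 tested histone H3.2 and H4 genes was called by limma or by limma-voom, although 6 had an unadjusted p under 0.05 in limma, at a median log2FC of -0.25 and a range of -0.94 to 0.43. The most abundant, Histone H4 PGSC0003DMG400027736, was at 152, 138 and 105 FPKM at 12 h and at 137, 104 and 116 FPKM at 24 h, so its groups overlapped. It was chosen after its values were seen.

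Several other genes changed from near nothing to a moderate level. A phytocyanin-like arabinogalactan-protein, of a family of wall and membrane glycoproteins, had the largest log2FC among described genes with a mean of at least 5 FPKM. It was at 0.142, 0.0263 and 0.130 FPKM at 12 h and at 22.6, 23.1 and 21.2 FPKM at 24 h (PGSC0003DMG400026274, log2FC 6.87 ± 0.26, adjusted p = 2.9e-05), so the 2 hours were clearly separate. A gene described as systemin receptor SR160, known in tomato as a receptor kinase, was at 0.312, 0.0743 and 0.0245 FPKM at 12 h and at 20.1, 18.2 and 17.9 FPKM at 24 h (PGSC0003DMG400013198, log2FC 6.50, adjusted p = 8.08e-05). A lipid binding protein (PGSC0003DMG400022281) rose by a log2FC of 5.6, the gene described as 98b (PGSC0003DMG400012298) by 6.11 and the gene described as ROP (PGSC0003DMG400000304) by 4.73.

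**Figure D2:**
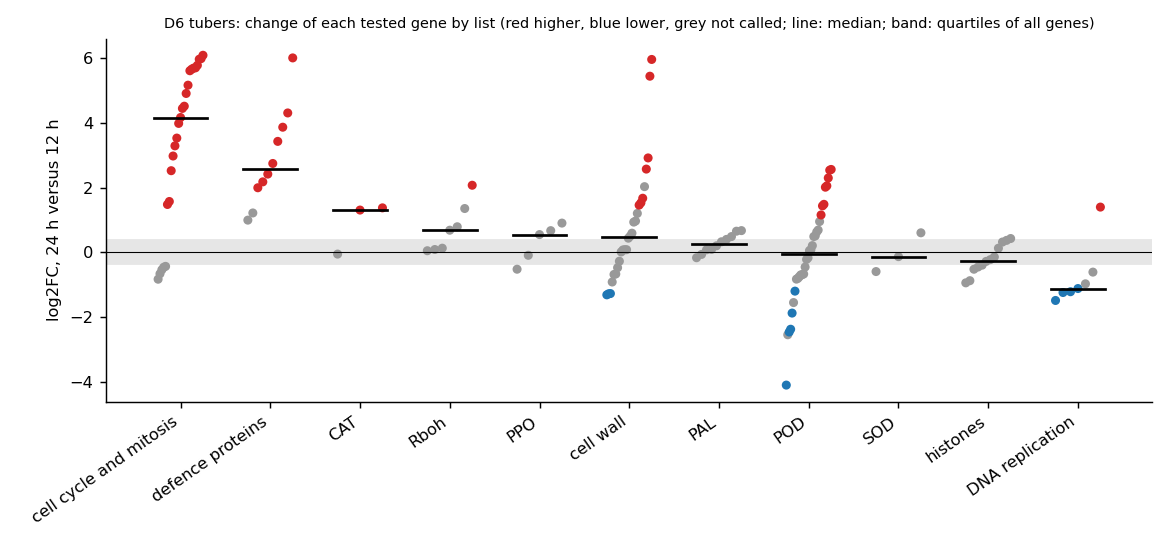
log2FC between 24 and 12 h in D6 for each tested gene of 11 lists, with genes called higher in red, called lower in blue and not called in grey. The black line is the median of the list and the grey band spans the quartiles of all tested genes, -0.36 to 0.37. Cell cycle and mitosis and defence proteins lie mostly above the band and DNA replication mostly below it, with PAL and histones at or near it.

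Most described defence proteins of the pathogenesis-related classes rose. Of 11 genes for chitinases, beta-1,3-glucanases and osmotins, which attack fungal walls and membranes, 10 were tested, 8 rose and none fell, at a median log2FC of 2.58. This is 80% called, against 41.7% of all tested genes with a description and 10.6% of all genes. In X2 the median log2FC of the list between these hours was 2.16. Osmotin PGSC0003DMG400003044 was at 3.24, 2.31 and 4.76 FPKM at 12 h and at 69.9, 65.8 and 66.0 FPKM at 24 h. The later libraries were all high and close together, and the log2FC was 4.31 ± 0.23 (adjusted p = 3.97e-05). The basic beta-1,3-glucanase isoform 1 went from 1.17 ± 0.708 to 16.5 ± 6.03 FPKM (PGSC0003DMG400040260, SD, n = 3, log2FC 3.87, adjusted p = 0.00152). A predicted beta-1,3-glucanase, Novel00670, was at 0.230, 0 and 0 FPKM at 12 h and at 9.50, 9.86 and 9.15 FPKM at 24 h. Only 3 reads fell on it at 12 h against 361 at 24 h, a ratio of 116 with a 95% counting interval of 39.4 to 566. Endochitinase 2 (PGSC0003DMG400026854, log2FC 1.22) and a class II chitinase (PGSC0003DMG400001528, just under 1) were the 2 tested genes that were not called, and both were named after their values were seen.

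Peroxidases moved in both directions. Of 41 genes of the family, 32 were tested, 8 rose, 5 fell and 19 were not called, at a median log2FC of -0.06. This is 40.6% called, near the 41.7% of all tested genes with a description, against 10.6% of all genes. The study selected the family on X2 libraries. How reads that fit several near-identical copies were counted is not given in the sources used here, so values of single peroxidases, and of the PAL, PPO, extensin, pectinesterase and histone genes, are uncertain to that extent. For a few genes the study gives real-time PCR primers. Those of the 2 peroxidases below that changed in opposite directions, and of a pectin methylesterase inhibitor and a catalase that also changed, are shown because they let the same transcripts be measured again.
Peroxidase 15 forward: tggtgttgtctcttgtgccgata
Peroxidase 15 reverse: ttgcggttctactgtctcttcgt
Peroxidase PGSC0003DMG400005062 forward: cccttgctgctcgtgact
Peroxidase PGSC0003DMG400005062 reverse: ttggattaacgcgccggt
PME inhibitor forward: actcaatccaaacaaacccaa
PME inhibitor reverse: catgtgcttctgctggaccta
Catalase PGSC0003DMG400029408 forward: tcgcgatggtgccatgaa
Catalase PGSC0003DMG400029408 reverse: tgctcagcaggacgacaag

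The peroxidase with the largest fall was a cationic peroxidase, PGSC0003DMG400012589. It was at 19.1, 1.75 and 10.6 FPKM at 12 h and at 0.354, 0.210 and 0.438 FPKM at 24 h. Its 12 h libraries differed widely among themselves, yet all lay above those of 24 h, and it fell by 4.10 on the log2 scale (SE 0.76, adjusted p = 0.00552). It was not called by limma-voom on recovered reads (unadjusted p = 0.0319). Suberization-associated anionic peroxidase 2, known from the suberizing potato wound, was at 42.2, 20.9 and 29.4 FPKM at 12 h and at 3.29, 5.63 and 8.03 FPKM at 24 h. All later libraries were low, and the log2FC was -2.46 ± 0.35 (PGSC0003DMG400022341, adjusted p = 0.00194). The gene with the next identifier, suberization-associated anionic peroxidase PGSC0003DMG400022342, moved the other way, from 15.8, 1.97 and 3.99 FPKM to 42.2, 35.8 and 17.4 FPKM. Its groups did not overlap by a narrow margin, and its call (log2FC 2.54 ± 0.69, adjusted p = 0.0238) was lost without D6 12 h replicate 2 or 3 and without D6 24 h replicate 1 or 2. Peroxidase PGSC0003DMG400032199 went from 15.2 ± 5.50 to 2.82 ± 0.893 FPKM (log2FC -2.37, adjusted p = 0.00127) and Peroxidase 15 from 17.3 ± 7.24 to 4.83 ± 2.51 FPKM (PGSC0003DMG400015548, log2FC -1.87, adjusted p = 0.0106).

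Among peroxidases that rose, the predicted peroxidase 11, Novel02497, was at 6.29, 18.3 and 8.76 FPKM at 12 h and at 50.0, 90.3 and 47.6 FPKM at 24 h. Its libraries were clearly apart, with a log2FC of 2.56 ± 0.40 (adjusted p = 0.00269). Peroxidase PGSC0003DMG400005062 was at 12.8, 15.2 and 15.7 FPKM at 12 h and at 85.1, 71.9 and 60.7 FPKM at 24 h, a log2FC of 2.30 ± 0.14 (adjusted p = 7.95e-05). The number of peroxidases that rose was 5 without D6 12 h replicate 2 or without D6 24 h replicate 1, and 6 or 7 without each of the other libraries. The number that fell was 7 without D6 12 h replicate 2, more than rose, and 5 without each other library, and the median log2FC was 0.30 without D6 12 h replicate 1. Among those not called, Peroxidase PGSC0003DMG400014055, singled out for its high level, was at 535, 444 and 475 FPKM at 12 h and at 297, 304 and 300 FPKM at 24 h. Its groups did not overlap, and its log2FC of -0.69 (adjusted p = 0.00246) was short of the fold limit.

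**Figure D3:**
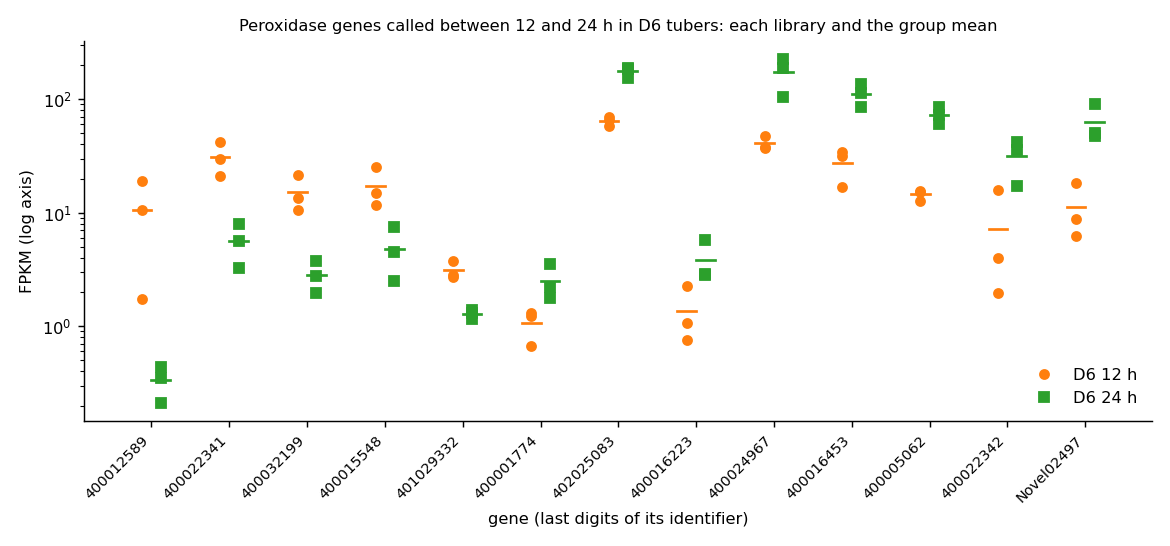
FPKM (log axis) of the 13 called peroxidase genes in each D6 library at 12 h (circles) and 24 h (squares), with the group mean as a line, ordered by log2FC. The 5 genes on the left fell and the 8 on the right rose, and the cationic peroxidase PGSC0003DMG400012589 has the widest spread at 12 h, 1.75 to 19.1 FPKM.

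Phenylalanine ammonia-lyase (PAL) makes cinnamic acid from phenylalanine, and all 10 of its genes matched in the study's family list were tested. None was called by limma or by limma-voom, although 4 had an unadjusted p under 0.05 in limma, at a median log2FC of 0.27 and a range of -0.16 to 0.67. PAL gene PGSC0003DMG402021549, with the highest value among them, was at 399, 377 and 307 FPKM at 12 h and at 539, 704 and 494 FPKM at 24 h. All 3 later libraries were higher, but the log2FC of 0.67 ± 0.16 (adjusted p = 0.0158) was short of the fold limit. PAL gene PGSC0003DMG400031365 was at 403 ± 42.2 and 385 ± 16.1 FPKM (SD, n = 3, log2FC -0.06, adjusted p = 0.685), a difference within the spread of its libraries. The other 8 PAL genes were Novel01736, Novel01899, PGSC0003DMG400019386, PGSC0003DMG400023458, PGSC0003DMG400031457, PGSC0003DMG401021549, PGSC0003DMG401021564 and PGSC0003DMG402021564, with mean levels at 24 h from 1.54 to 260 FPKM.

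Of 6 polyphenol oxidase (PPO) genes, 5 were tested and none was called by limma or by limma-voom, although 4 had an unadjusted p under 0.05 in limma, at a median log2FC of 0.55. Catechol oxidase B was at 296, 301 and 280 FPKM at 12 h and at 556, 596 and 497 FPKM at 24 h. The groups were well apart, and the log2FC of 0.91 ± 0.11 (PGSC0003DMG400029575, adjusted p = 0.000992) lay just under the fold limit. PPO gene PGSC0003DMG400018916 had a log2FC of 0.55 (adjusted p = 0.0119), polyphenol oxidase A (PGSC0003DMG400018917) of 0.67 (adjusted p = 0.0227), PGSC0003DMG400018914 of -0.09 (adjusted p = 0.646) and PGSC0003DMG400029576 of -0.52 (adjusted p = 0.101). The sixth, PGSC0003DMG400022430, stayed below the FPKM limit.

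Catalases break down hydrogen peroxide, and 2 of the 3 tested rose, but none at a |log2FC| of at least 1.5. Catalase PGSC0003DMG400029408 was at 214, 188 and 301 FPKM at 12 h and at 583, 595 and 610 FPKM at 24 h. The later libraries lay close together and above all earlier ones, with a log2FC of 1.38 ± 0.17 (adjusted p = 0.00121). Catalase isozyme 3 went from 0.975 ± 0.289 to 2.55 ± 0.691 FPKM (PGSC0003DMG400009906, log2FC 1.31, adjusted p = 0.00979), a call lost at a pseudocount of 1. Catalase isozyme 2 did not differ beyond its spread, at 80.8 ± 10.5 and 78.4 ± 13.9 FPKM (PGSC0003DMG400001570, log2FC -0.05, adjusted p = 0.819). PGSC0003DMG400009908, listed with the catalases, stayed below the FPKM limit.

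Superoxide dismutases turn superoxide into hydrogen peroxide, and none of the 3 tested was called by limma or by limma-voom, although 2 had an unadjusted p under 0.05 in limma. The mitochondrial manganese enzyme was at 52.3, 47.8 and 55.2 FPKM at 12 h and at 77.3, 81.1 and 77.8 FPKM at 24 h (PGSC0003DMG400016647, log2FC 0.61 ± 0.09, adjusted p = 0.00201). Its libraries did not overlap although its fold was under the limit. PGSC0003DMG400005247 had a log2FC of -0.59 (adjusted p = 0.00471) and PGSC0003DMG400027577 of -0.13 (adjusted p = 0.685). The predicted chloroplastic iron enzyme Novel01435 was listed at 0 in all 6 libraries.

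Respiratory burst oxidase homologs (Rboh) are the NADPH oxidases that make superoxide at the plasma membrane. All 7 were tested and 1 was called, the low PGSC0003DMG400013550, at 0.0984, 0.224 and 0.216 FPKM at 12 h and at 0.744, 1.35 and 1.15 FPKM at 24 h (log2FC 2.08 ± 0.36, adjusted p = 0.004). It rose in all 3 later libraries, but without D6 24 h replicate 2 it was below the FPKM limit. Rboh B was at 1.43, 5.87 and 1.25 FPKM at 12 h and at 4.91, 9.80 and 4.06 FPKM at 24 h. In both hours replicate 2 was the highest, and the groups overlapped. The log2FC of 1.36 ± 0.58 (PGSC0003DMG400024754, adjusted p = 0.103) was not called, while with the replicate number as a block it was (log2FC 1.36, unadjusted p = 0.000653), as it was without D6 12 h replicate 2 (log2FC 2.04). Rboh A (PGSC0003DMG400012316) had a log2FC of 0.79 (adjusted p = 0.0277), the predicted NADPH oxidase Novel03252 of 0.69, Rboh D (Novel02721) of 0.13, Rboh C (PGSC0003DMG400014168) of 0.09 and the predicted Rboh E (Novel02552) of 0.05.

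Cell wall genes changed in both directions. Of 29 genes for expansins, pectin and xyloglucan enzymes, glucanases, cellulose synthase and extensins, 26 were tested, 7 rose, 3 fell and 16 were not called, at a median log2FC of 0.47. This is 38.5% called, near the 41.7% of all tested genes with a description. Catalytic subunit 3 of cellulose synthase A was at 0.0991, 0.0660 and 0.0348 FPKM at 12 h and at 8.49, 6.43 and 6.47 FPKM at 24 h. It went from near the detection limit to a clear level in every library (PGSC0003DMG400031800, log2FC 5.45 ± 0.25, adjusted p = 3.21e-05). A hydroxyproline-rich protein, of the class of structural wall proteins, went from 0.297 ± 0.441 to 16.1 ± 2.42 FPKM (PGSC0003DMG400001358, log2FC 5.96, adjusted p = 0.00102). A xyloglucanase inhibitor went from 8.19 ± 1.58 to 65.4 ± 25 FPKM (PGSC0003DMG400008978, log2FC 2.92, adjusted p = 0.000615).

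The other 4 that rose were a xyloglucan endo-transglycosylase (PGSC0003DMG400021877, log2FC 2.58), an extensin (PGSC0003DMG400000783, 1.67) and pectinesterases PGSC0003DMG401019255 (1.53) and PGSC0003DMG402019255 (1.46), most of them named after their values were seen.

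The 3 cell wall genes of the list that fell were enzymes and proteins that loosen or cut the wall. Expansin PGSC0003DMG400023815 was at 110, 105 and 109 FPKM at 12 h and at 47.2, 34.9 and 54.3 FPKM at 24 h. Its 12 h libraries were nearly equal and all above those of 24 h (log2FC -1.27 ± 0.15, adjusted p = 0.00116). Pectate lyase P18 went from 71.1 ± 11.7 to 30.8 ± 13.0 FPKM (PGSC0003DMG400012640, log2FC -1.28, adjusted p = 0.0106), and its call was lost without D6 24 h replicate 2. Endo-1,4-beta-glucanase PGSC0003DMG400008938 went from 31.1 ± 4.31 to 13.5 ± 7.05 FPKM (log2FC -1.31, adjusted p = 0.0152), a call lost without D6 12 h replicate 2 or 3 or without D6 24 h replicate 2. The number that fell was 1 without D6 24 h replicate 2 and 5 without D6 24 h replicate 3.

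Wall enzymes outside that list were also among the largest falls. Endo-beta-1,4-D-glucanase was at 112, 114 and 106 FPKM at 12 h and at 31.4, 23.3 and 43.6 FPKM at 24 h (PGSC0003DMG400012288, log2FC -1.80 ± 0.20, adjusted p = 0.000909). A member of glycosyl hydrolase family 9, the plant family of such glucanases, was at 9.40, 11 and 7.10 FPKM at 12 h and at 1.83, 1.85 and 4.24 FPKM at 24 h (PGSC0003DMG401000668, log2FC -1.85, adjusted p = 0.00447). In both genes every later library was lower. The PME inhibitor, which blocks pectin methylesterase, was at 25.5, 14.1 and 12.8 FPKM at 12 h and at 4.45, 2.73 and 4.09 FPKM at 24 h (PGSC0003DMG400010815, log2FC -2.15 ± 0.28, adjusted p = 0.00156). It too had no overlap between hours. An oxidoreductase (PGSC0003DMG400019120) fell by 1.96 and NtEIG-A1 protein (PGSC0003DMG400000621) by 1.81 on the log2 scale.

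Of 13 phenylpropanoid enzymes, a list that includes PAL genes, 1 rose and none fell, at a median log2FC of 0.25. This was a cinnamyl alcohol dehydrogenase, which makes lignin monomers, at 0.367, 0.841 and 0.868 FPKM at 12 h and at 2.90, 3.18 and 3.36 FPKM at 24 h (PGSC0003DMG400018446, log2FC 2.11 ± 0.30, adjusted p = 0.00201). It was low at both hours, without overlap. The wider phenylpropanoid pathway list, which holds peroxidases and glucosidases too, had 14 tested genes, of which 5 rose and 2 fell. This is 50% called, against 41.7% of all tested genes with a description, and the list was picked for strong change in X2. Beta-D-glucan exohydrolase, a glucosidase of this and the starch and sucrose list, rose from 2.61 ± 0.898 to 39.0 ± 2.75 FPKM (PGSC0003DMG400003013, log2FC 3.90, adjusted p = 6.37e-05). Of 7 flavonoid pathway genes, also picked in X2, 1 (14.3%) rose, an elicitor-inducible cytochrome P450 (PGSC0003DMG400013684, log2FC 2.04, adjusted p = 0.0131). Its call was lost without D6 24 h replicate 1 or 2. Among 3 suberin genes the 2 called ones were the anionic peroxidases above, and Acyl CoA reductase, which makes fatty alcohols and was named after its value was seen, had a log2FC of 0.70 (PGSC0003DMG400007405, adjusted p = 0.3).

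The transcription factors here are those that the study listed as responsive to cutting in X2. They are no unbiased sample, and their families may not be complete. Of 1000 tested, 98 (9.8%) were called, 50 higher and 48 lower, against 10.6% of all genes. Of 72 MYB genes 13 rose and 4 fell, and of 55 AP2-EREBP genes 4 rose and 8 fell. Of 36 WRKY genes 1 rose and 1 fell, and without D6 12 h replicate 3 or D6 24 h replicate 3 the number that fell was 3, with 2 that rose in the latter case. Of 26 NAC genes 1 rose, which became 3 without D6 12 h replicate 1, 2 without D6 24 h replicate 3 and 0 without D6 12 h replicate 3 or D6 24 h replicate 2. Of 40 bHLH genes 3 rose and 2 fell, and the number that fell was 1 without D6 12 h replicate 1 or D6 24 h replicate 1 or 2. It was 3 without D6 24 h replicate 3. Of 39 homeobox genes 3 rose and 1 fell, and the number that fell was 2 without D6 12 h replicate 2 and 3 without D6 24 h replicate 3. None of 19 heat shock factors rose and 3 fell. The number that fell was 1 without D6 12 h replicate 1 and without D6 24 h replicate 2 or 3. Without D6 24 h replicate 3, 1 also rose. For AP2-EREBP genes the numbers were 6 that rose and 5 that fell without D6 12 h replicate 2, and 5 and 5 without D6 24 h replicate 1.

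AP2-EREBP gene PGSC0003DMG400016812 rose to a high level. It was at 21.4, 14.0 and 20.9 FPKM at 12 h and at 196, 221 and 173 FPKM at 24 h, all later libraries far above the earlier ones (log2FC 3.40 ± 0.17, adjusted p = 3.74e-05). AP2-EREBP gene PGSC0003DMG400010285 rose from 0.0712 ± 0.123 to 4.38 ± 2.53 FPKM (log2FC 4.76, adjusted p = 0.00124). MYB gene PGSC0003DMG400009033 was at 61.3, 60.5 and 51.3 FPKM at 12 h and at 13.2, 12.9 and 13.5 FPKM at 24 h. Its libraries agreed closely within each hour, and it fell by 2.12 on the log2 scale (adjusted p = 3.21e-05). MYB genes PGSC0003DMG400031044 and PGSC0003DMG400018588 rose by a log2FC of 3.04 and 2.61. The bHLH gene PGSC0003DMG400004087 was at 131, 82.2 and 87.6 FPKM at 12 h and at 18.4, 15.6 and 29.9 FPKM at 24 h, without overlap (log2FC -2.26, adjusted p = 0.000993). The Tify gene PGSC0003DMG400008782, of the family of jasmonate repressors, went from 5.79 ± 0.942 to 1.67 ± 0.346 FPKM (log2FC -1.75, adjusted p = 0.000952) and was the 1 called among 8, or 1 of 3 called without D6 24 h replicate 3.

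Of 5 tested gibberellin genes 3 rose. This is 60% called, against 41.7% of all tested genes with a description. Ent-kaurenoic acid oxidase, an enzyme of gibberellin synthesis, was at 2.96, 2.10 and 1.61 FPKM at 12 h and at 8.59, 7.84 and 4.22 FPKM at 24 h (PGSC0003DMG400001823, log2FC 1.57 ± 0.31, adjusted p = 0.00688), without overlap. The receptor GID1 (PGSC0003DMG400022492, log2FC 1.14, adjusted p = 0.0217) lost its call without D6 12 h replicate 2 or 3 and without each of the D6 24 h replicates. Gibberellin 3-beta-dioxygenase, which makes active gibberellin, was the third (PGSC0003DMG400023714, log2FC 2.45, adjusted p = 0.00553) and was named after its value was seen. The number that rose was 1 without D6 24 h replicate 3, where 1 also fell, and 2 without D6 12 h replicate 2 or 3 or D6 24 h replicate 1 or 2. Of 4 auxin genes a SAUR gene rose (PGSC0003DMG400028254, log2FC 1.48, adjusted p = 0.0101), a call lost at a pseudocount of 1.

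Glutamate metabolism held a pair of opposite changes around gamma aminobutyrate, which the decarboxylase makes and the transaminase removes. Glutamate decarboxylase isoform 3 was at 3.44, 4.55 and 5.35 FPKM at 12 h and at 0.219, 0.444 and 0.697 FPKM at 24 h (PGSC0003DMG400022764, log2FC -3.11 ± 0.35, adjusted p = 0.000904). Gamma aminobutyrate transaminase isoform 2 was at 0.472, 2.55 and 2.06 FPKM at 12 h and at 34.4, 34.4 and 29.4 FPKM at 24 h (PGSC0003DMG400025228, log2FC 4.46 ± 0.51, adjusted p = 0.000952). Neither had any overlap between the hours, and the other 2 tested genes of the list were not called. The pathway lists of this paragraph hold only genes picked for strong change in X2, so their counts are descriptions. The share called was 50% for the glutamate list, 75% for amino acid synthesis and 55.6% for starch and sucrose. It was 41.7% over all tested genes with a description and 10.6% over all genes. In the list of amino acid synthesis 3 of 4 genes rose, among them acetylornithine deacetylase (PGSC0003DMG400017513, 1.87 ± 0.149 to 14.9 ± 7.45 FPKM, log2FC 2.77, adjusted p = 0.00201). A predicted 2-isopropylmalate synthase, of leucine synthesis, was the lower of the called ones (Novel03278, log2FC 1.38, adjusted p = 0.0136), a call lost without D6 12 h replicate 1 and without D6 24 h replicate 1 or 2. In the starch and sucrose list 4 of 9 genes rose and 1 fell, Trehalose-6-phosphate synthase (PGSC0003DMG400013809, log2FC -1.24, adjusted p = 0.0217), whose call was lost without D6 12 h replicate 1 or 3 and without D6 24 h replicate 2 or 3.

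None of the 5 genes with the highest mean FPKM was called by limma or by limma-voom, although 2 had an unadjusted p under 0.05 in limma, and no description was at hand for them. PGSC0003DMG400011751 was at 2476, 2201 and 2438 FPKM at 12 h and at 3798, 3336 and 3419 FPKM at 24 h, without overlap (log2FC 0.57, adjusted p = 0.0164). PGSC0003DMG400010146 was at 1216, 6703 and 2267 FPKM at 12 h and at 2891, 6861 and 4310 FPKM at 24 h, with replicate 2 the highest in both hours (log2FC 0.74, adjusted p = 0.361). The log2FC was 0.42 for PGSC0003DMG402001494, 0.20 for PGSC0003DMG400024281 and -0.41 for PGSC0003DMG400000708.

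Whether the change from 12 to 24 h differed from that in X2 was tested as an interaction of cultivar and hour. Of 20043 genes tested, 752 (3.75%) were called, 305 (1.52%) with a larger and 447 (2.23%) with a smaller log2FC in D6, at adjusted p-values up to 0.113. Without X2 24 h replicate 3 more were larger than smaller, 306 to 275, in a fit where the lone X2 library left at 24 h is assumed to vary like those of the other groups. Of the 2055 D6 calls tested for it, 255 were called for the difference. In X2 itself, 2396 of 19733 genes (12.1%) were called between these hours, 7.41% of all tested higher and 4.73% lower. Among described genes 97 of the 106 called differences were smaller in D6, but these genes were picked for change in X2.

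Of 26 tested cell wall genes, 12 had a smaller log2FC in D6 and none a larger one, and their median log2FC was 0.47 in D6 and 1.83 in X2. The list rests on descriptions mostly of genes picked for change in X2, whose libraries also enter this test. Its lean toward smaller values stands beside the 97 of 106 among all described genes and is a description only. Endo-1,4-beta-glucanase PGSC0003DMG400008938, which fell in D6, was at 10.8, 12.5 and 9.94 FPKM in X2 at 12 h and at 33.6 and 38.2 FPKM at 24 h. The cultivars moved in opposite directions, with a difference of log2FC of -3.0 ± 0.41 (adjusted p = 0.00675). Endo-beta-1,4-D-glucanase PGSC0003DMG400012288 went from 46.7 to 50.6 FPKM in X2 at 12 h to 59.0 and 88.9 FPKM at 24 h, a difference of -2.39 (adjusted p = 0.0044). The difference was negative too for the glycosyl hydrolase of family 9 PGSC0003DMG401000668 (-3.79, adjusted p = 0.00486), pectate lyase P18 PGSC0003DMG400012640 (-2.33, adjusted p = 0.0114) and expansin PGSC0003DMG400023815 (-1.43, adjusted p = 0.0157). Both PGSC0003DMG400012288 and PGSC0003DMG401000668 stand outside the list of 26. At 12 h these 5 genes were higher in D6 than in X2 in every library.

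**Figure D4:**
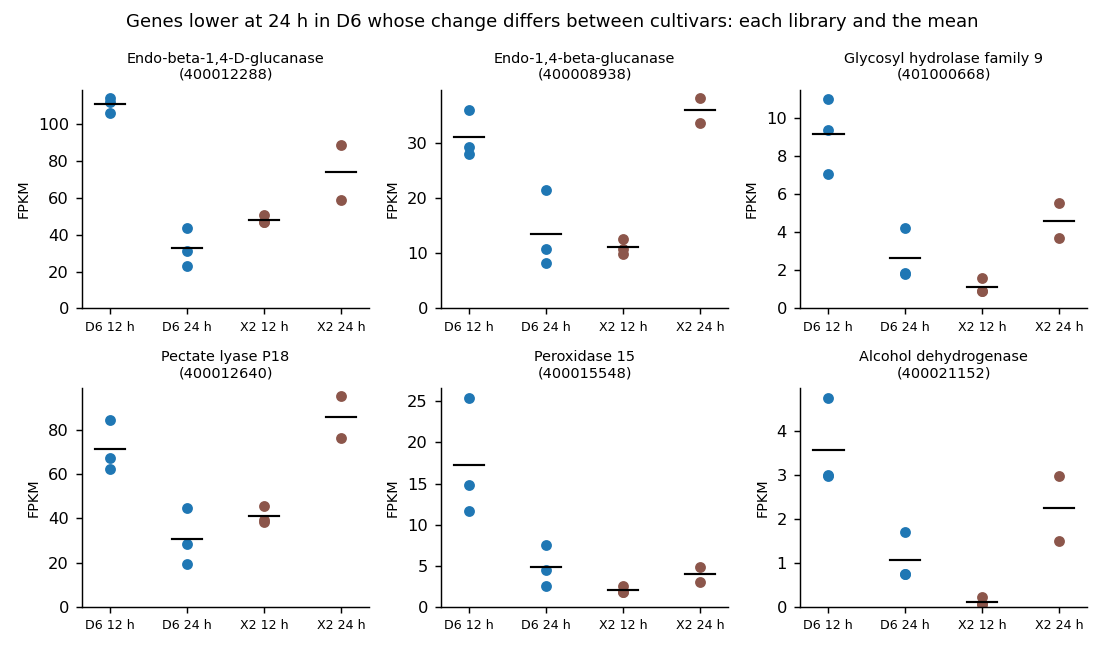
FPKM of 6 genes that fell between 12 and 24 h in D6, in each library of D6 (blue) and X2 (brown), with the group mean as a line. In all 6 the D6 libraries at 12 h lie above those of X2 at 12 h, and the X2 mean is higher at 24 h than at 12 h.

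Some histones differed too. Of 12 tested, 5 had a smaller log2FC in D6 and none a larger one, with medians of -0.25 in D6 and 1.04 in X2. This list was drawn from the same descriptions, so its lean is likewise a description only. Histone H3.2 PGSC0003DMG400022836, the one with the highest log2FC in D6, was at 42.6, 42.9 and 30.6 FPKM at 12 h and at 59.3, 42.2 and 54.6 FPKM at 24 h in D6. In X2 it was at 19.7, 18.3 and 21.7 FPKM at 12 h and at 71.7 and 105 FPKM at 24 h. D6 was higher at 12 h and lower at 24 h, and the difference of log2FC was -1.69 (adjusted p = 0.0109). Of the 25 cell cycle and mitosis genes 1 had a larger and 2 a smaller log2FC in D6, with medians of 4.17 in D6 and 5.01 in X2. For the other 22 the test did not call a difference.

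**Figure D5:**
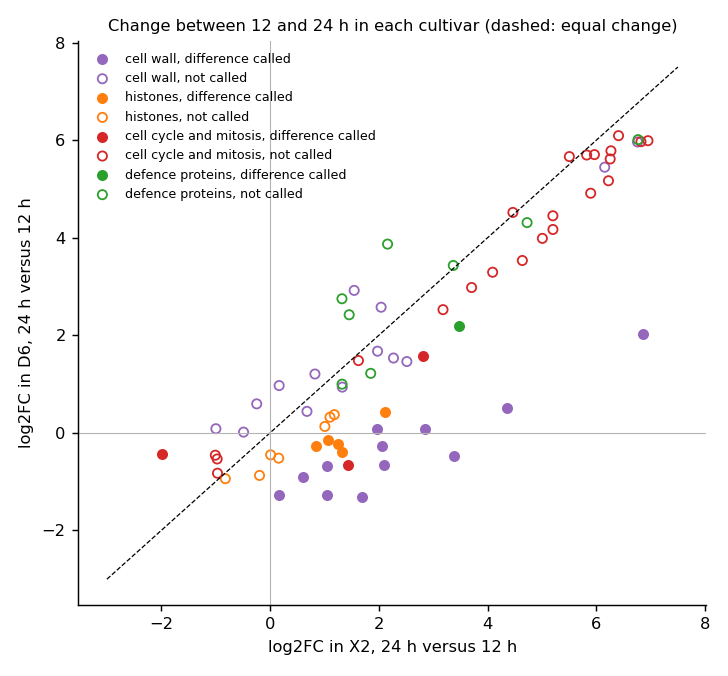
log2FC between 24 and 12 h in D6 (vertical axis) against X2 (horizontal axis) for tested genes of 4 lists, with genes called for the difference filled and the others open. The dashed line marks equal change. Most cell cycle and mitosis genes lie near the line at high values, and filled cell wall and histone genes lie below it.

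Some named genes stood further apart. RNase NE, a secreted ribonuclease known from tobacco relatives, was at 17.6, 17.8 and 13.7 FPKM at 12 h and at 39.4, 22.2 and 26.4 FPKM at 24 h in D6 (PGSC0003DMG400002825). In X2 it was at 0.653, 0.187 and 0.473 FPKM at 12 h and at 13.9 and 25.4 FPKM at 24 h, so that the cultivars were far apart at 12 h and overlapped at 24 h. The difference of log2FC was -4.44 ± 0.52 (adjusted p = 0.00427). The alcohol dehydrogenase PGSC0003DMG400021152 fell from 4.75, 3.01 and 2.98 FPKM to 0.747, 0.738 and 1.70 FPKM in D6. In X2 it was at 0.0539 to 0.235 FPKM at 12 h and at 1.5 and 2.99 FPKM at 24 h, with a difference of -5.19 (adjusted p = 0.00427). Protein RSI-1, known from tomato roots, was at 79.8 ± 20.1 FPKM at 12 h and 53.3 ± 16.2 FPKM at 24 h in D6, and at 19.4 to 22.0 FPKM and then 107 and 175 FPKM in X2 (PGSC0003DMG402015689, difference -3.34, adjusted p = 0.0029). Differences in the other direction included 1.73 for the AP2-EREBP gene PGSC0003DMG400016812 (adjusted p = 0.023) and 1.11 for Peroxidase 12 (PGSC0003DMG401025083, adjusted p = 0.043), which was not called in D6 itself (log2FC 0.51). Peroxidase 12's call for the difference was lost without D6 12 h replicate 3, D6 24 h replicate 2 or X2 24 h replicate 1.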

How the data were processed

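Values were FPKM per gene and library, deposited by the authors, who per their methods removed adapter and low-quality reads, aligned with HISAT to SolTub_3.0, counted with featureCounts and scaled by gene length and reads. How reads that match several places were counted is not given in the sources used here. The submitters' notes name Bowtie and a mouse build, which does not match the potato identifiers. Library columns were matched to the labels by cultivar and hour, and 2 value columns that share 1 name were not used.

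Genes with a mean of at least 0.5 FPKM over the compared libraries were tested with limma 3.58.1 (R 4.3.3, empirical Bayes with a trend) on log2(FPKM + 0.1), a scale that understates changes of low genes. A gene was called at |log2FC| of at least 1 and p of at most 0.01, with Benjamini-Hochberg adjusted p beside it, all two-sided. The cultivar difference was the interaction term in a fit of both cultivars. Depth was taken from reads recovered from the FPKM steps, with 514245 of 514245 values above 0 in 29325 genes within 0.05 of a whole read, and counting intervals (exact, 95%) cover counting error only. On these reads limma-voom called 2133 genes. The fit between hours was also run on simulated data with independent normal noise. That run does not cover low counts or the shared deviations of same-numbered libraries given below.

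Named were the 12 described genes with the largest rise and the 12 with the largest fall at a mean of at least 5 FPKM without overlap, up to 3 called genes per direction in each list at a mean of at least 1 FPKM, all PAL, PPO, CAT, SOD and Rboh genes, 5 genes per direction for the cultivar difference and the 5 with the highest FPKM. Lists came from words in the descriptions and from the study's family and pathway tables. These hold genes that the study picked in X2, for the pathway table at a |log2FC| of at least 6. The transcription factors are those that it listed as responsive to cutting. The comparison, the members and the lists were chosen with earlier results of these data known.

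Libraries with the same number deviated together, since the correlations of their deviations from the group means over 19819 genes were 0.229, 0.282 and 0.122, against -0.222 to -0.0352 for other pairs. The numbers come from the column names, which do not say what is shared. A fit with this number as a block, other pseudocounts, filters, scaling, thresholds and samples were alternatives. Figures were drawn with matplotlib 3.10.9.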

Additional observations from a re-analysis of the deposited data

Results flagged for a closer look

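The results below are those named genes whose change from 12 to 24 h differed between D6 and X2 in the interaction test, given as the log2FC in D6 minus that in X2. X2 has 2 libraries at 24 h, so a fit without either assumes that the lone library varies like those of the other groups, and no explanation was weighed.

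Among wall proteins, secreted proteins and a few enzymes the difference was -5.19 for the alcohol dehydrogenase PGSC0003DMG400021152, -4.82 for beta expansin 1 (PGSC0003DMG400026022), -4.44 for RNase NE (PGSC0003DMG400002825), -3.79 for the glycosyl hydrolase of family 9 (PGSC0003DMG401000668) and -3.66 for a gibberellin regulated protein (PGSC0003DMG400001227). It was -3.47 for the cytochrome P450 PGSC0003DMG400017997, -3.34 for Protein RSI-1 (PGSC0003DMG402015689), -3.0 for the endo-1,4-beta-glucanase PGSC0003DMG400008938, -2.39 for the endo-beta-1,4-D-glucanase PGSC0003DMG400012288, -2.33 for pectate lyase P18 (PGSC0003DMG400012640) and -1.43 for the expansin PGSC0003DMG400023815. Beta expansin 1 was at 0.0375, 1.74 and 0.562 FPKM at 12 h and at 0.848, 1.19 and 9.24 FPKM at 24 h in D6, so its groups overlapped, and its adjusted p for the difference was 0.0909. Its call was lost without any of 8 of the 11 libraries.

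Among enzymes of oxidation and browning the difference was -2.76 for Peroxidase 15 (PGSC0003DMG400015548), -2.02 for the polyphenol oxidase PGSC0003DMG400029576, -1.93 for polyphenol oxidase A (PGSC0003DMG400018917), 1.11 for Peroxidase 12 (PGSC0003DMG401025083), 1.67 for the predicted Rboh E (Novel02552) and 2.64 for Rboh B (PGSC0003DMG400024754, adjusted p = 0.109). The call of Rboh B was lost without any of 8 of the 11 libraries, and that of Peroxidase 12 without D6 12 h replicate 3 (0.97), D6 24 h replicate 2 (0.98) or X2 24 h replicate 1 (0.96). Peroxidase 15 was at 1.86, 2.57 and 1.76 FPKM at 12 h and at 3.07 and 4.79 FPKM at 24 h in X2, where it was lower at 12 h than in D6 in every library. Polyphenol oxidase A was at 0.542, 0.752 and 0.641 FPKM at 12 h and at 4.98 and 3.9 FPKM at 24 h in X2, against 2.70 to 3.24 and 3.79 to 5.75 FPKM in D6.

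The remaining differences were -1.84 for ROP (PGSC0003DMG400000304), 2.91 for the histidine-rich glycoprotein (PGSC0003DMG400000777), 1.08 for cinnamoyl-CoA reductase (PGSC0003DMG400017842), 1.18 for the bHLH gene PGSC0003DMG400004011, and 1.73, 1.33 and -1.90 for the AP2-EREBP genes PGSC0003DMG400016812, PGSC0003DMG400012828 and PGSC0003DMG400026035. Without X2 24 h replicate 3 the calls of ROP, the histidine-rich glycoprotein (2.19) and cinnamoyl-CoA reductase (0.95) were lost, the last also without D6 12 h replicate 1 (0.98) or X2 12 h replicate 1 (0.94). The calls of the bHLH gene and of PGSC0003DMG400026035 were lost without any of 8 and 10 of the 11 libraries. Of the 24 differences in this section, 14 were called in every setting tried and 10 were lost in at least 1.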

How the results depend on the processing

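No named gene called between hours or for the cultivar difference changed sign under any setting tried, but some splits did. Differences went from 305 larger and 447 smaller in D6 to 306 and 275 without X2 24 h replicate 3, and the split of peroxidases and of AP2-EREBP genes turned without D6 12 h replicate 2. The 2095 calls between hours became 1369 at a pseudocount of 1 (872 higher, 497 lower) and 955 at a |log2FC| of at least 1.5 (745 higher, 210 lower). The 752 calls for the cultivar difference became 435 at an adjusted p of at most 0.05 and 390 at a |log2FC| of at least 1.5. Without each library in turn, 1593 to 2246 genes were called between hours, 1006 to 1344 higher and 587 to 1005 lower, and 576 to 893 for the difference. The other settings gave 1850 to 2443 calls between hours, and 526 to 1004 for the difference. With the replicate number as a block there were 2259 calls, 1409 higher and 850 lower, of which 2060 were shared. For the difference there were 817 calls, of which 607 were shared. The block made Rboh B (PGSC0003DMG400024754) a call between hours and changed no other such call of a gene named by the rules above. Among the 24 called differences it ended only that of the AP2-EREBP gene PGSC0003DMG400026035 (-2.02, unadjusted p = 0.0134). Whether it added calls for the difference among the other named genes was not examined. Of the 85 named genes called, 51 were called in every setting that tested them and 34 were lost in at least 1. Where calls were lost, the cause was not tested. With 3 libraries per hour, changes of genes near the FPKM limit rest on few reads.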
